A study of Rattus norvegicus with 11 samples.

Results

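Collagen genes were followed in retroperitoneal white adipose tissue, the visceral fat behind the abdominal cavity, of 11 female Wistar rats. Members were all gene rows whose symbol is Col, a number, a and a number with nothing after it, which took 45 of 25275 rows and 44 symbols, because Col23a1 stands on 2 rows. By textbook class, 11 rows encode fibrillar chains, 6 basement membrane (type IV) chains, 6 type VI chains and 22 other collagens. All rats were wild type. They began at 10 weeks of age with 6 weeks of western diet, were then ovariectomized, and all received degarelix, a blocker of the gonadotropin-releasing hormone receptor. Their osmotic pumps held vehicle in 6 rats (Degarelix-only, here degarelix only) and follicle-stimulating hormone (FSH) at 6 µg per kg per day in 5 rats (Degarelix+FSH, here degarelix plus FSH). Food was restricted for 12 days to hold body weight and then free for 7 days, and tissue was taken at 19 weeks of age after 4 h without food. Each library came from 1 rat, so the replicates are biological. Every group carried both the surgery and degarelix, and the comparison asks what added FSH changed on that background. All log2 changes are degarelix plus FSH relative to degarelix only.

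Collagens are secreted proteins built of alpha chains wound into a helix. Fibrillar collagens (types I, II, III, V, XI, XXIV and XXVII) assemble into banded fibrils that carry tension, and type V chains start and limit those fibrils. Type IV collagen forms the sheet-like network of basement membranes, which wrap every adipocyte and line capillaries. Type VI collagen forms beaded microfilaments near the basement membrane, and in fat it is known as an abundant matrix component whose alpha 3 chain releases the fragment endotrophin. Chains are hydroxylated and folded in the endoplasmic reticulum, trimmed outside the cell and cross-linked by lysyl oxidases.

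Most collagen rows were detected, and none differed between the groups past the threshold. A count was seen in 42 of 45 rows in at least 1 library and in 34 rows in every library. Col10a1, Col25a1 and 1 of the Col23a1 rows had a count of 0 in all 11 libraries, which allows up to 0.127 to 0.223 CPM by library (3 counts, counting error only). CPM here are a gene's counts scaled to the library total after TMM scaling (counts per 1e6). The quasi-likelihood test of edgeR was run on 12846 genes, 31 collagen rows among them, and 0 of these passed a Benjamini-Hochberg adjusted p of 0.05, where 2.27% of all genes did. At an unadjusted p under 0.05 there were 5 collagen rows, Col28a1, Col9a3, Col22a1 and Col20a1 with positive changes and Col15a1 with a negative one, against 22.6% of all genes. DESeq2 called 1 higher (Col28a1) and 1 lower (Col15a1), and limma-voom called 0. Of the 31, 11 had a log2 change below 0, against 48.4% of all genes, and the median change was 0.04, against 0.01 for all genes. The groups did not overlap at 1 collagen row, Col15a1, where 4.34% of all genes had groups that did not overlap. In whole tissue, fewer cells of a type and less RNA per cell cannot be told apart.

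Libraries held 16452117 to 23694602 counts in degarelix only rats and 13163021 to 19837706 in degarelix plus FSH rats, and collagen rows took 1.23% to 1.65% of them. Degarelix plus FSH replicate 3 stood apart from the rest. It lay at 44.18 on the first principal component of all genes (22.7% of variance), against 2.583 to 12.65 for the other FSH rats. Degarelix only rats lay at -28.08 (replicate 1) to 4.514, so that component also ran roughly along the groups. Of 5 Schwann cell markers, 3 were also highest there. Among them, Sox10, a transcription factor of neural crest glia, was at 64.4 CPM there and between 1.94 and 4.80 CPM in the other 10 rats. Adipocyte markers marked the tissue in every rat, with a summed 21300 to 27800 CPM in degarelix only and 20000 to 27200 CPM in degarelix plus FSH. Of nearby organs, the 7 kidney markers summed to 1.14 to 3.58 CPM per library, with Umod, Aqp2 and Slc34a1 at 0 in all. The 6 adrenal cortex markers summed to 42.6 to 79.2 CPM, largely the corticotropin receptor Mc2r and the cholesterol carrier Star, which were counted in all 11 libraries, with Cyp11b2 and Hsd3b2 at 0 in all.

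**Figure D1:**
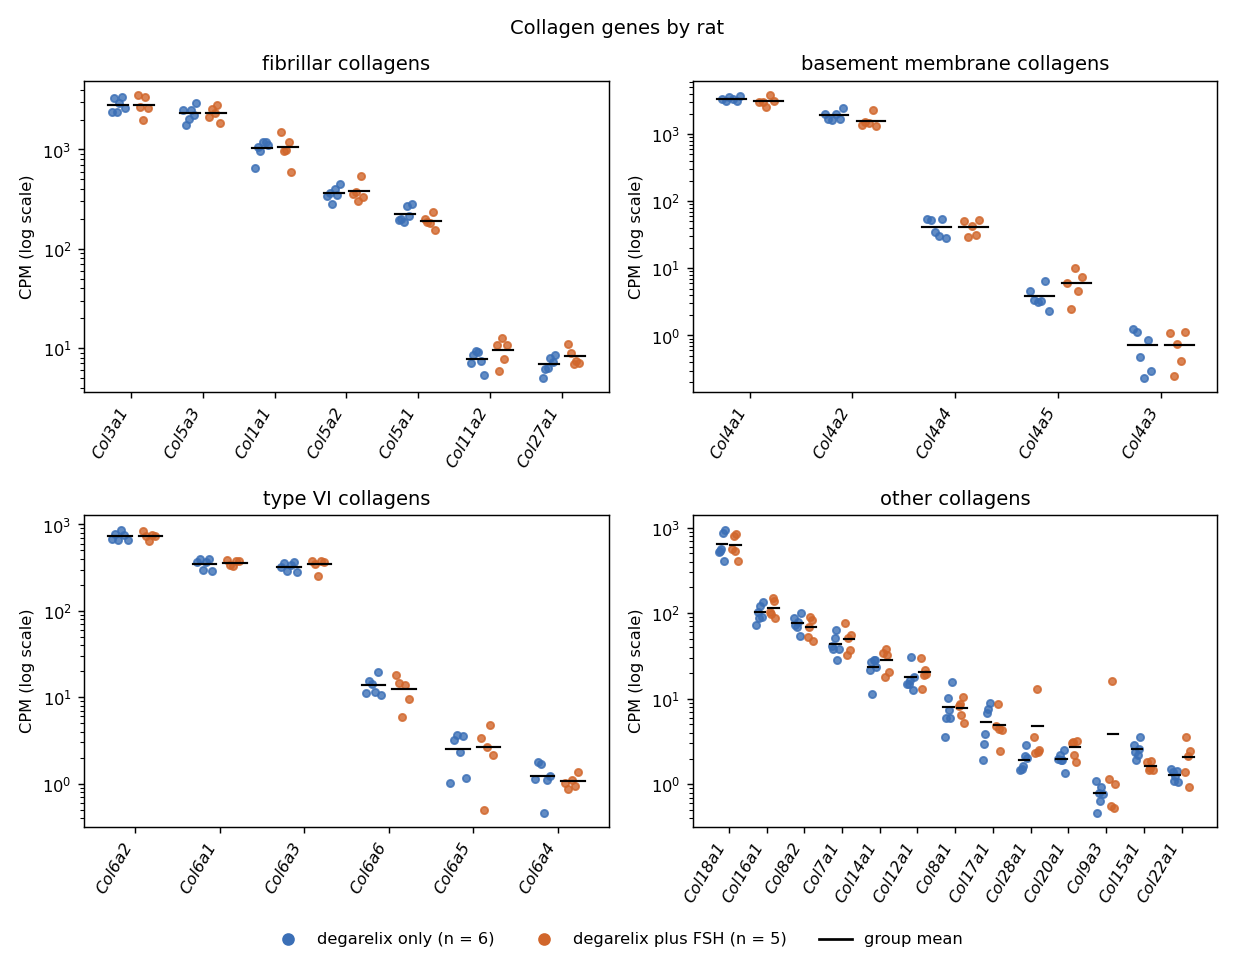
Each point is 1 rat and each black bar a group mean; the vertical axes give TMM-scaled CPM on a log scale for the 31 tested collagen rows, by class. Points of both groups overlap at every gene except Col15a1, and Col9a3 and Col28a1 show 1 FSH rat far above the others. Gene lengths were not available, so heights of different genes do not compare their levels.

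The fibrillar collagens had closely similar means in both groups. Summed over the 11 rows, degarelix only rats ranged from 5871 to 7432 CPM (median 7016) and the 5 FSH rats had 7716, 6832, 5829, 8181 and 5558 CPM. The FSH rats held both the lowest and the highest sum, and the groups overlapped. Means were 6794 ± 675 and 6823 ± 1144 CPM (SD, n = 6 and n = 5). Of the 7 fibrillar rows tested, 6 had a log2 change above 0 (85.7%, against 51.6% of all genes) and 1 below 0. Their median was 0.04, against 0.01 for all genes.

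Col1a1 (ENSRNOG00000003897), the main chain of type I collagen, ranged from 652 to 1190 CPM in degarelix only rats (median 1090) and was at 1507, 976, 996, 1201 and 600.0 CPM in FSH replicates 1 to 5. FSH replicate 1 was the highest and FSH replicate 5 the lowest of all 11 rats. The log2 change was 0.04 ± 0.21 (SE), with a 95% interval of -0.42 to 0.51 (edgeR adjusted p = 0.928), so a change of the mean within that range was not resolved. Col3a1 (ENSRNOG00000003357), whose homotrimers co-assemble with type I fibrils, ranged from 2378 to 3359 CPM (median 2780) without FSH and was at 3522, 2709, 1999, 3368 and 2588 CPM with FSH. FSH replicate 3 was the lowest rat and FSH replicate 1 the highest, and the mean change was 0.00 on the log2 scale (95% interval -0.33 to 0.34).

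None of the type V chains passed the threshold. Col5a1 (ENSRNOG00000008749) ranged from 187 to 280.2 CPM (median 206) without FSH and was at 202, 185, 180.2, 233 and 154 CPM with FSH, so 3 FSH rats lay below the lowest degarelix only rat while the groups overlapped. Its log2 change was -0.23 ± 0.13 (edgeR adjusted p = 0.312). Col5a2 went from 363 ± 55.9 to 384 ± 94.3 CPM (log2 change 0.08), and Col5a3 from 2332 ± 412 to 2335 ± 376 CPM (0.00, 95% interval -0.31 to 0.31). Col27a1, a fibrillar chain of cartilage and developing tissue, had 6.84 ± 1.26 and 8.26 ± 1.70 CPM (0.27 ± 0.16, edgeR adjusted p = 0.334). Col11a2, a chain of type XI collagen, had a log2 change of 0.29 ± 0.20 (edgeR adjusted p = 0.395).

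The remaining fibrillar rows, Col1a2, Col2a1, Col11a1 and Col24a1, were too low for the test. The row of Col1a2 (ENSRNOG00000011292), partner of Col1a1 in type I collagen, held 1 to 11 counts per library (0.0743 to 0.601 CPM). A separate row described as the same chain (NEWGENE_621351, ENSRNOG00000052925) held 2.86 to 6.12 CPM. Adding the rows gave 5.14 ± 1.21 and 4.57 ± 1.10 CPM (log2 change -0.17 ± 0.20, edgeR adjusted p = 0.658), a merging chosen after the values were seen. How reads of a gene present in near-identical rows were counted is not given in the sources used here, so the Col1a2 values are uncertain.

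**Figure D2:**
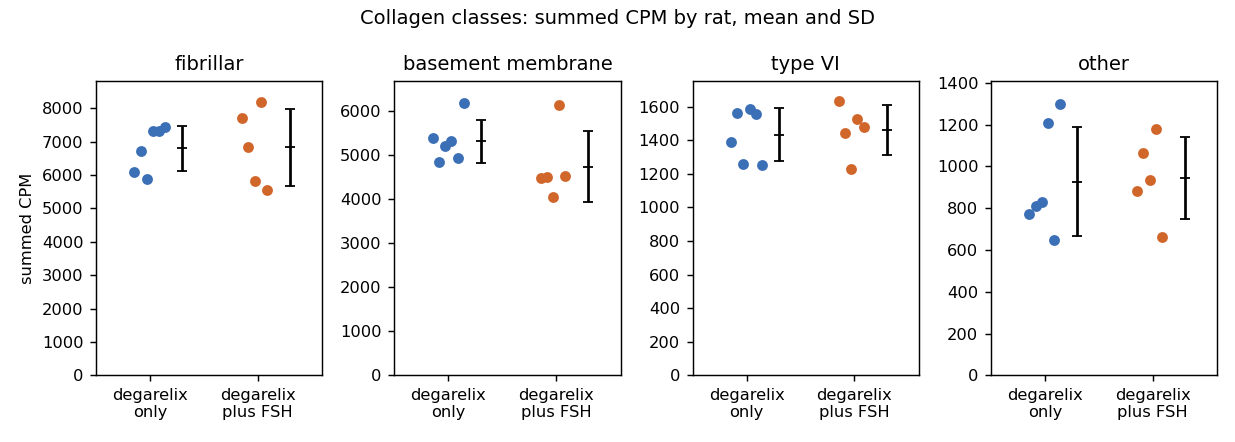
Points are rats and the vertical axis is the summed CPM of a class, from 0, with the mean and SD of each group beside them. The FSH group spans the range of the degarelix only group in the fibrillar class, and in the basement membrane class 4 of 5 FSH rats lie below every degarelix only rat.

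Basement membrane collagens had lower sums in most FSH rats, without a gene past the threshold. The 6 type IV rows summed to 4847 to 6191 CPM in degarelix only rats (median 5264) and to 4489, 4508, 4040, 6140 and 4533 CPM in FSH replicates 1 to 5. Thus 4 FSH rats lay below the lowest degarelix only rat, while FSH replicate 4 lay near the top of the other group. Group means were 5313 ± 481 and 4742 ± 808 CPM (SD, n = 6 and n = 5).

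The type IV genes lie in head-to-head pairs, an arrangement in which neighbouring genes start close together on opposite strands. Their upstream sequences are shown because the paired chains are compared across rats further on. In the RefSeq table (build GRCr8, not the authors' build) the starts of Col4a1 and Col4a2 are 77 bases apart, those of Col4a3 and Col4a4 413 and those of Col4a5 and Col4a6 1415. The 250 bases before each start are printed 5′ to 3′ on the gene's own strand, and capitals mark the stretch shared by both windows of a pair, 76 bases for Col4a1 and Col4a2 and 88 for Col4a3 and Col4a4, identical on opposite strands. The windows are chr16:84885347-84885596 (+ strand) for Col4a1, chr16:84885521-84885770 (- strand) for Col4a2, chr9:91323740-91323989 (+ strand) for Col4a3 and chr9:91323578-91323827 (- strand) for Col4a4.
Col4a1: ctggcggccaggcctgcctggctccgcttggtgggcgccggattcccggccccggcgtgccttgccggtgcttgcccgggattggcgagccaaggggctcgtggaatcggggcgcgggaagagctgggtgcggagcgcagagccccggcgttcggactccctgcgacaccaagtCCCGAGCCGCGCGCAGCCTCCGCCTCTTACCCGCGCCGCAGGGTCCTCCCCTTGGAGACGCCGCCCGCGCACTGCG
Col4a2: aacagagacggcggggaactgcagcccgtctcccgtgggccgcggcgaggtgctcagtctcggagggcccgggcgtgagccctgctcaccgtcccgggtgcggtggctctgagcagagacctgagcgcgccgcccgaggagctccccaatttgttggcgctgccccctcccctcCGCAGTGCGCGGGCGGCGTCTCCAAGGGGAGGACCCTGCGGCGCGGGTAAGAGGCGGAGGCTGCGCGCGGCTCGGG
Col4a3: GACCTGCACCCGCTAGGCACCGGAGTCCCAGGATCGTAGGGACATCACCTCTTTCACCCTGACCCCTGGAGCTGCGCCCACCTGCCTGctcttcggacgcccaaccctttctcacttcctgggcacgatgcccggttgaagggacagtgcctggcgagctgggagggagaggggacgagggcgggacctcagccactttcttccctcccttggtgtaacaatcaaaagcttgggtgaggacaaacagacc
Col4a4: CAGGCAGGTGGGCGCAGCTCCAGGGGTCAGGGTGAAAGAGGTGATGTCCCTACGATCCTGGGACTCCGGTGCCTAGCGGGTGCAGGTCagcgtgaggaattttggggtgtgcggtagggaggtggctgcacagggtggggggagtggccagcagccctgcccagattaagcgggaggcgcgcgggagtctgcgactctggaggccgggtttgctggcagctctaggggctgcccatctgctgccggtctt

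Across collagen promoters, the GC box (GGGCGG, either strand, in the 250 bases before the start) was in 19 of 35 promoters (54.3%), against 30.5% of all 33469 promoters of the table. It was in 5 of the 6 type IV promoters, all but that of Col4a4, and in 6 of 8 fibrillar ones. The GC box of Col4a1 lies in the stretch shared with Col4a2, so that site is found in both windows. The GC content of the collagen windows was also higher, with a median of 58.8% against 51.2%. The CCAAT box was in 11 (31.4%, against 34.0%), among them Col4a1 and Col4a2, and TATAAA in 4 (11.4%, against 12.9%), none of them a type IV gene. The motifs do not overlap one another in their letters, and a match is a description of sequence only. The table matched 35 of 44 symbols, without Col1a1 and Col3a1. Each matched symbol entered with its first listed promoter only, while the comparison took all 33469 promoters.

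Col4a1 (ENSRNOG00000016281) and Col4a2 (ENSRNOG00000023972) encode the chains of the type IV network found in most basement membranes. Col4a1 ranged from 3104 to 3672 CPM without FSH (median 3319) and was at 3051, 2966, 2543, 3806 and 3134 CPM with FSH. FSH replicate 4 was the highest and FSH replicate 3 the lowest of all rats, and the log2 change was -0.11 ± 0.10 (95% interval -0.34 to 0.11, edgeR adjusted p = 0.546). Col4a2 ranged from 1621 to 2489 CPM (median 1848) without FSH and was at 1380, 1510, 1443, 2298 and 1338 CPM with FSH. As with the sum, 4 FSH rats lay below every degarelix only rat and FSH replicate 4 stood apart from them. The log2 change of Col4a2 was -0.26 ± 0.16 (95% interval -0.61 to 0.08, edgeR adjusted p = 0.344).

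The chains of the specialised type IV networks, known from kidney glomerulus, lung and other sites, were read more thinly. Col4a5 (ENSRNOG00000018951) ranged from 2.34 to 6.38 CPM (median 3.30) without FSH and was at 6.07, 2.47, 9.95, 4.53 and 7.51 CPM with FSH. FSH replicate 3 was the highest rat, and the groups overlapped. The log2 change was 0.67 ± 0.33 (95% interval -0.05 to 1.39, edgeR adjusted p = 0.254). Col4a3 had 0.709 ± 0.435 and 0.719 ± 0.389 CPM, from 4 to 27 counts per library, and Col4a4 had 41.9 ± 12.3 and 41.3 ± 10.7 CPM. Col4a6 had at most 5 counts in a library and was not tested.

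The type VI chains had close sums in both groups. They ranged from 1251 to 1586 CPM without FSH (median 1473) and were 1634, 1442, 1232, 1529 and 1480.1 CPM with FSH. FSH replicate 1 was highest, FSH replicate 3 lowest, and the groups overlapped. Col6a1 (ENSRNOG00000001249) and Col6a2 (ENSRNOG00000001254), which encode the short chains, had 353 ± 48.8 against 362 ± 27.5 CPM and 738 ± 84.5 against 741 ± 71.7 CPM. Their 95% intervals of the log2 change, -0.18 to 0.25 and -0.20 to 0.22, were among the narrowest of the collagens.

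Col6a3 (ENSRNOG00000019648), the long chain that releases endotrophin, ranged from 281 to 368 CPM (median 329) without FSH and was at 380.4, 347, 252.5, 377 and 363.5 CPM with FSH. FSH replicate 3 was the lowest rat of all, and the log2 change was 0.08 ± 0.11 (95% interval -0.17 to 0.33, edgeR adjusted p = 0.710). The chains Col6a4, Col6a5 and Col6a6, alternatives to the alpha 3 chain, had log2 changes of -0.21 ± 0.30, 0.11 ± 0.48 and -0.15 ± 0.25, all within overlapping groups.

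**Figure D3:**
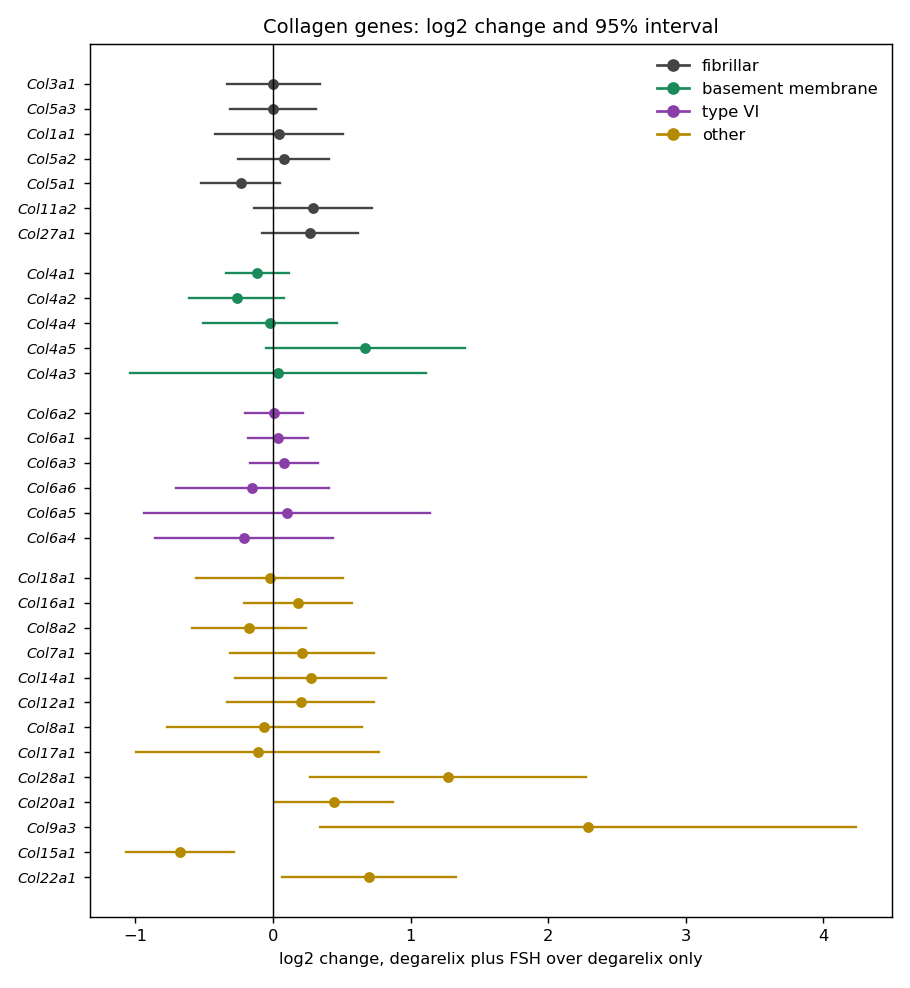
Points give the log2 change of each tested collagen gene (degarelix plus FSH over degarelix only) and lines its 95% interval from edgeR, with colours for the class. All intervals of the fibrillar, basement membrane and type VI genes include 0, and those of Col28a1, Col9a3, Col22a1, Col20a1 and Col15a1 do not.

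Among the other collagens, Col15a1 was lower and is the member whose groups did not overlap. Col15a1 (ENSRNOG00000039197) encodes a collagen that bridges basement membranes to the fibrils around vessels and adipocytes. It ranged from 1.94 to 3.61 CPM (median 2.50) without FSH and was at 1.80, 1.48, 1.56, 1.88 and 1.45 CPM with FSH. Every FSH rat lay below every degarelix only rat, on 21 to 74 counts per library, where 1.8% of all genes were lower with no overlap. The log2 change was -0.67 ± 0.18 (95% interval -1.07 to -0.28, edgeR adjusted p = 0.0681), short of the threshold. DESeq2 placed it past the threshold (adjusted p = 0.0257), and over 20 alternatives the adjusted p ranged from 0.0257 to 0.198.

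A second row is described as the same kind of chain. LOC100909752 (ENSRNOG00000060381), described as type XV alpha 1-like, held 88.2 to 157 CPM without FSH and 70.6, 82.6, 74.8, 122 and 66.9 CPM with FSH, so here FSH replicate 4 overlapped the other group. Its log2 change was -0.48 ± 0.19 (edgeR adjusted p = 0.158). Merged, the rows gave 119 ± 27.1 and 85.0 ± 22.5 CPM (log2 change -0.49 ± 0.18, edgeR adjusted p = 0.152), and the groups overlapped. Neither row, nor their merging, passed edgeR's threshold.

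Col18a1 (ENSRNOG00000001229), the vessel-wall collagen that carries endostatin, ranged from 411 to 948 CPM (median 553) without FSH and was at 560, 807, 528, 844 and 412 CPM with FSH. Highs and lows occurred in both groups, and the log2 change was -0.02 ± 0.24 (95% interval -0.56 to 0.51). The fibril-associated collagens Col12a1, Col14a1 and Col16a1, which sit on fibril surfaces, had log2 changes of 0.20 ± 0.25, 0.27 ± 0.25 and 0.18 ± 0.18. Col7a1, of anchoring fibrils, had 0.21 ± 0.24, the network-forming Col8a1 -0.06 ± 0.32 and Col8a2 -0.17 ± 0.19, and the transmembrane Col17a1 -0.11 ± 0.40. For these genes the edgeR adjusted p was 0.545 or higher. Summed, the 22 other rows had 927 ± 261 and 945 ± 195 CPM. That sum leaves out LOC100909752, at 117 ± 26.6 and 83.4 ± 22.4 CPM, so its direction depends on whether that row is counted.

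Col22a1, a collagen of tissue junctions, was at 1.07 to 1.51 CPM without FSH and at 1.38, 3.58, 2.15, 0.942 and 2.42 CPM with FSH. FSH replicates 2, 3 and 5 lay above every degarelix only rat and FSH replicate 4 below them all. Its log2 change was 0.70 ± 0.29 (edgeR adjusted p = 0.185). Col20a1, a fibril-associated chain, was at 1.36 to 2.54 CPM in degarelix only rats and at 3.06, 3.15, 2.23, 1.83 and 3.25 CPM in FSH rats (log2 change 0.44 ± 0.20, edgeR adjusted p = 0.210). FSH replicates 1, 2 and 5 lay above every degarelix only rat, and the groups overlapped.

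Col9a3 had a high FSH mean through 1 library, and Col28a1 did so in part. Col28a1 (ENSRNOG00000033618), a collagen known from nerve around non-myelinating glia, was at 1.46 to 2.91 CPM without FSH and at 3.60, 2.34, 13.0, 2.36 and 2.52 CPM with FSH. FSH replicate 3 was 3.61-fold above the next rat. Every FSH rat lay above all degarelix only rats but replicate 5 (2.91 CPM). The log2 change of 1.27 ± 0.46 (edgeR adjusted p = 0.140, DESeq2 adjusted p = 0.0496) fell to 0.48 ± 0.22 without FSH replicate 3 (edgeR adjusted p = 0.256). Col9a3 (ENSRNOG00000009531), a chain of cartilage type IX collagen, was at 0.465 to 1.08 CPM without FSH and at 1.14, 0.555, 16.3, 0.530 and 1.02 CPM with FSH. Its log2 change of 2.29 ± 0.89 (edgeR adjusted p = 0.163) was 0.08 without that rat (edgeR adjusted p = 0.915).

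The same rat was the highest of all 11 at 14 of the 42 collagen rows with a count, and over 3-fold above the next rat at 9 of them. Col2a1, the cartilage fibril chain, had 65 counts (4.83 CPM) there and 0 in every other library, at least 26.0-fold higher than the per-library floor of 3 counts. Col26a1 had 8 counts there and 0 elsewhere (at least 3.2-fold). Col9a2 was 14.5-fold, Col24a1 6.80-fold, Col11a1 6.48-fold, Col23a1 4.42-fold and Col9a1 3.09-fold above the next rat. Col13a1 was 2.10-fold above. Against this, Col3a1, Col4a1 and Col6a3 were lowest of all rats in that library. Col19a1 had at most 4 counts in a library and none in the FSH rats.

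Markers of other cell types moved with those values in FSH replicate 3. Of 5 Schwann cell markers, 3 were highest there: Mbp at 1314 CPM (52.2 to 90.9 elsewhere), Sox10 at 64.4 CPM and Cdh19 at 33.5 CPM (0.874 to 2.10 elsewhere). Gfra3 and S100b were not apart there. The list summed to 6080 CPM, against at most 4410 CPM in the other FSH rats and 3880 to 5260 CPM without FSH. Most of that sum was S100b in every rat, at 4660 CPM there and 3007 to 5161 CPM elsewhere. Of 7 chondrocyte markers, 3 were highest there, and the list summed to 52.9 CPM, mostly Lect1 at 47.4 CPM. Acan, the defining cartilage proteoglycan, was at 0 in all libraries. That sum was 2.22 to 3.73 CPM in the other FSH rats and 1.03 to 2.04 CPM without FSH. Comp, the only chondrocyte marker tested, was higher in every FSH rat than in every degarelix only rat, where 4.34% of all genes did not overlap. Its log2 change was 0.95 ± 0.23 (edgeR adjusted p = 0.0522), and FSH replicate 5 was highest (2.86 CPM). Of 7 mesothelial markers, 5 were highest there, with a sum of 32.0 CPM against at most 3.90 CPM in the other FSH rats and 1.35 to 8.85 CPM without FSH. Gpm6a held 17.3 CPM of the 32.0, and Upk3b and Lrrn4 were highest in degarelix only replicate 3. The part of these markers in the collagen values was not tested.

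**Figure D4:**
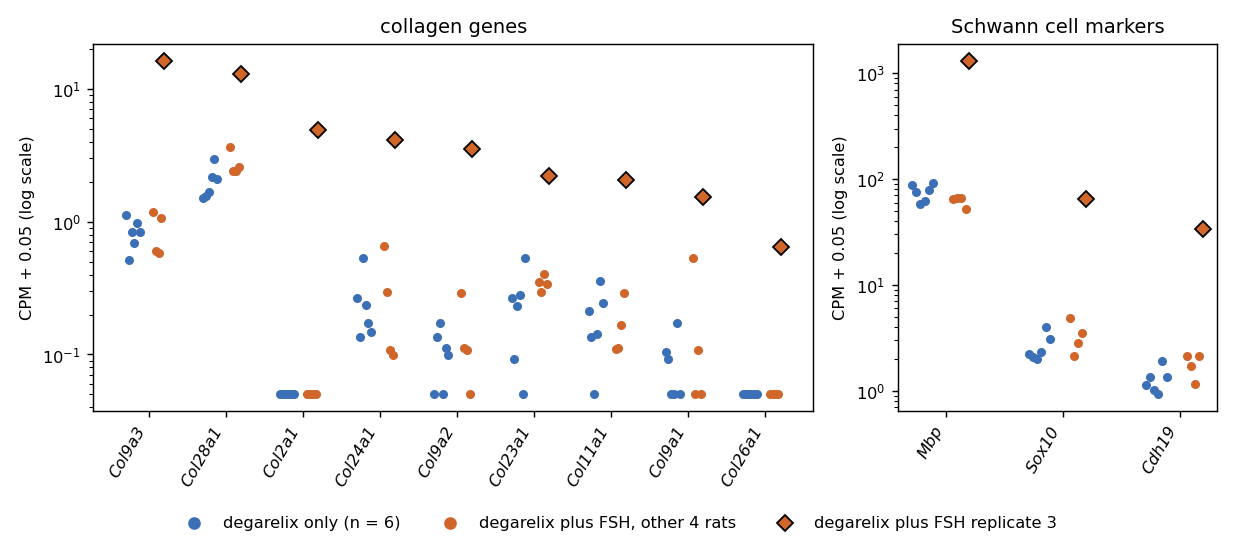
Both vertical axes give CPM + 0.05 on a log scale. The left panel holds the 9 collagen genes over 3-fold above the next rat in degarelix plus FSH replicate 3. The right panel holds the 3 of 5 Schwann cell markers that were highest in that rat. The diamonds of that rat stand above the points of the other 10 at each gene shown.

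Endothelial markers, of the cells next to which type IV, XV and XVIII collagens lie, had log2 changes above 0 at 8 of 8 genes (median 0.32), against 51.6% of all genes. At an unadjusted p under 0.05 there were 5 with positive changes, against 11.8% of all genes. The angiopoietin receptor Tek passed the threshold (log2 change 0.44 ± 0.10, edgeR adjusted p = 0.0431). Its adjusted p was above 0.05 with any 1 of 8 libraries left out, up to 0.106 without FSH replicate 1, and below it without FSH replicate 4 (0.0231) or degarelix only replicates 3 (0.0373) or 4 (0.0467). The edgeR adjusted p was 0.0512 without a filter on low counts and 0.159 with the replicate number as a block. The endothelial markers summed to 1430 to 1930 CPM without FSH and 1620 to 2640 CPM with FSH, and the groups overlapped. Of smooth muscle and pericyte markers, 6 of 7 had changes above 0 (median 0.19). Above 0 were also 4 of 7 fibroblast and progenitor markers (median 0.02), 4 of 7 macrophage markers (0.00) and 3 of 7 adipocyte markers (-0.03). The part of these cell types in the collagen values was not tested.

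Collagen genes with a mean of at least 10 CPM varied more between rats of a group than the median gene above that minimum. Of the 18 collagen rows with a mean of at least 10 CPM, 18 had a within-group SD above the median of all such genes. That SD had a median of 0.302 log2 units over the collagens (range 0.153 to 0.496), against 0.146 over 8475 genes. Abundance above the minimum was not matched. Without the minimum, the median was 0.408 for collagens and 0.189 for all genes tested. It was 0.335 for fibril-binding proteins, 0.326 for basement membrane partners and 0.327 for fibroblast and progenitor markers, so a raised spread was not particular to collagens. In the other related lists described below it was 0.207 to 0.229. At this abundance 0 of the 18 had an unadjusted p under 0.05, against 26.6% of the 8475 genes.

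Partner chains, which build 1 protein or fibril, had positive correlations across rats. Of 6 such pairs, 2 passed the adjusted threshold by Pearson's r and 5 by Spearman's rho (adjusted permutation p of rho 0.0184 to 0.0416), all but Col1a1 and Col1a2. None of the 3 pairs between classes passed by either. The 9 pairs, 6 of partner chains and 3 between classes, were chosen with earlier results of these data known. Pearson's r of log2 CPM over all 11 rats was computed with permutation tests adjusted over the pairs. Col6a1 and Col6a3 had r = 0.798 (permutation p = 0.00469, adjusted p = 0.0316) and rho = 0.836 (permutation p = 0.00227), r = 0.737 without the 2 rats farthest from the median, and r = 0.793 after centring within groups (permutation adjusted p = 9e-04). Col4a1 and Col4a2, which share the upstream stretch printed above, had r = 0.748 (permutation p = 0.00702, adjusted p = 0.0316), rho = 0.773 (permutation p = 0.0076) and r = 0.738 without the farthest 2. Centred within groups their r was 0.691 (permutation adjusted p = 0.122), short of the threshold.

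The other partner pairs had positive r that missed the adjusted threshold. Col6a1 and Col6a2 had r = 0.683 (permutation p = 0.0214, adjusted p = 0.0623), rho = 0.691 (permutation p = 0.0231) and r = 0.508 without the farthest 2. Col5a1 and Col5a2 had r = 0.660 (permutation p = 0.0277, adjusted p = 0.0623), rho = 0.745 (permutation p = 0.0113) and r = 0.628 without the farthest 2, and r = 0.823 within groups (permutation adjusted p = 0.0117). Col1a1 and Col3a1 had r = 0.601 (permutation p = 0.0525, adjusted p = 0.0945), rho = 0.809 (permutation p = 0.00409) and r = 0.727 without the farthest 2. Col1a1 and the thinly counted Col1a2 row had r = 0.189 (permutation p = 0.59), rho = 0.264 (permutation p = 0.434), and 0.707 without the farthest 2.

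Between classes, Col1a1 with Col4a1 had r = 0.0607 (permutation p = 0.862), rho = 0.118 (permutation p = 0.735) and 0.145 without the farthest 2. Col1a1 with Col6a1 had r = 0.0976 (permutation p = 0.791), rho = 0.355 (permutation p = 0.288) and 0.604 without the farthest 2, so that value rests on which rats are taken. Col4a1 with Col6a1 had r = -0.166 (permutation p = 0.623), rho = -0.164 (permutation p = 0.633) and -0.724 without the farthest 2, FSH replicates 3 and 4. Whether r differed between partner and between-class pairs was not tested. With FSH replicate 3 left out, Col6a1 and Col6a3 had r = 0.897 and Col4a1 and Col4a2 r = 0.796. The adjusted p of both passed or missed 0.05 depending on the library left out. It reached 0.102 without degarelix only replicate 6 for both, and for both it also missed without FSH replicate 4 or any of degarelix only replicates 1, 2 and 5, without FSH replicate 2 for Col4a1 and Col4a2, and without degarelix only replicate 3 for Col6a1 and Col6a3.

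The other head-to-head pair was examined after its values were seen. Col4a3 and Col4a4 had r = 0.969 over the 11 rats (permutation p = 3e-05), rho = 0.864 (permutation p = 0.00107), and r = 0.975 without the farthest 2, although Col4a3 rests on 4 to 27 counts per library. Col4a4 and Col4a5, chains that can join the same network, had r = 0.665 (permutation p = 0.03), rho = 0.736 (permutation p = 0.0128) and 0.447 without the farthest 2. As these pairs were picked for their values, their p describe the picked pairs and support nothing further.

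**Figure D5:**
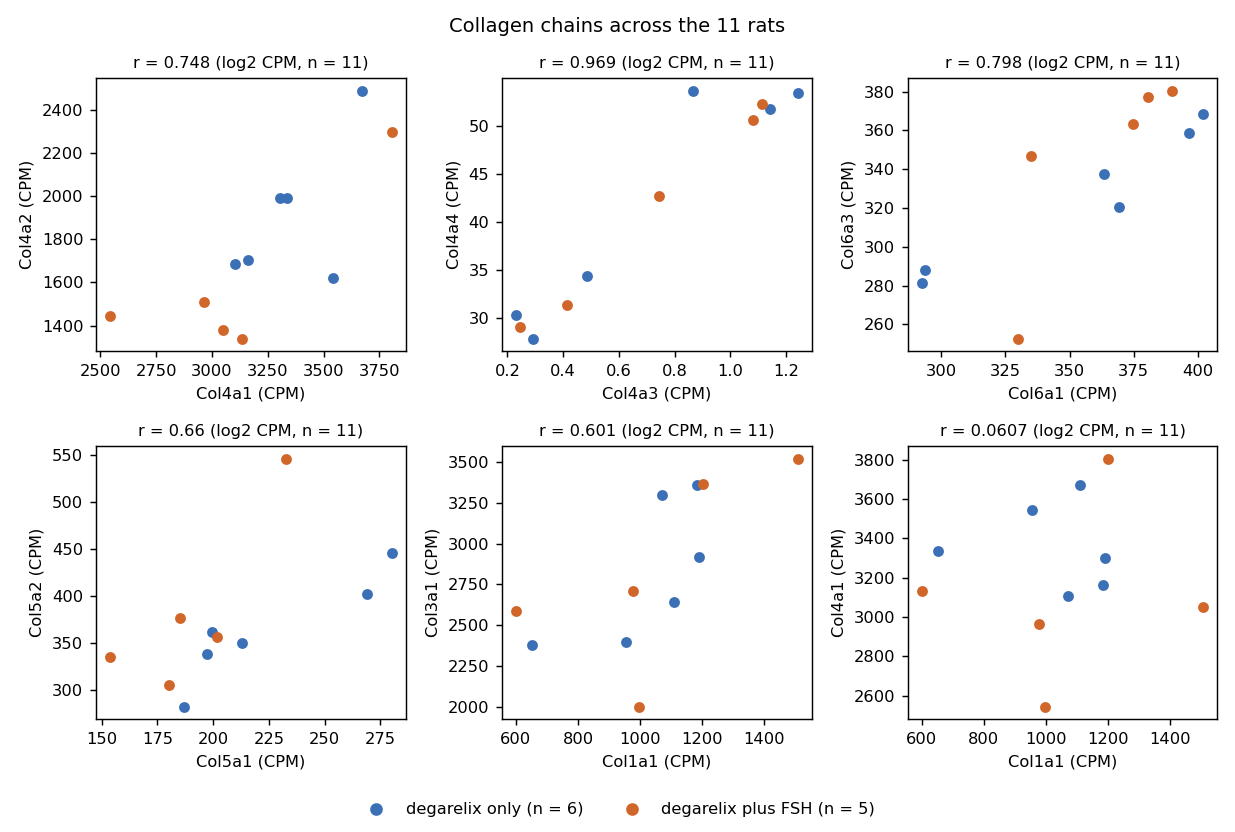
Each panel plots the CPM of 1 collagen gene against that of another, 1 point per rat, with Pearson's r of log2 CPM above it. Points rise together for partner chains such as Col4a1 and Col4a2 (r = 0.748) and scatter for Col1a1 and Col4a1 (r = 0.0607); the panel of Col4a3 and Col4a4 was chosen after its values were seen.

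Of genes that make, trim, bind or sense collagen, 78 in 6 lists were tested and 0 passed edgeR's adjusted threshold. DESeq2 called 8, with Lama5, Ltbp1 and Pcolce higher and Antxr2, Colgalt1, Lox, Loxl2 and Mia3 lower, and limma-voom called 0. Leaving out FSH replicate 4, edgeR called 4 (Lama5 higher, and Antxr2, Ctage5 and Loxl2 lower), and leaving out degarelix only replicate 4 it called Ltbp1. At an unadjusted p under 0.05 there were 15 (19.2%), 8 with positive and 7 with negative changes, against 22.6% of all genes. Folding and modification genes had 12 of 18 log2 changes below 0 (66.7%, against 48.4% of all genes), with a median of -0.18. At an unadjusted p under 0.05, 4 lay below 0 and 1 above, against 10.8% and 11.8% of all genes. Together these were 27.8% of the list, against 22.6% of all genes. Colgalt1, which adds galactose to hydroxylysine, had 167 ± 17.2 and 141 ± 10.1 CPM (log2 change -0.24 ± 0.08, edgeR adjusted p = 0.113). Mia3, which loads procollagen for export from the endoplasmic reticulum, had a log2 change of -0.23 ± 0.08 (edgeR adjusted p = 0.113).

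Procollagen cleavage and cross-linking genes had a positive median (0.16 over 11). Changes were negative at 3 of the 11 (27.3%, against 48.4% of all genes), the lysyl oxidases Lox, Loxl2 and Loxl4. The lysyl oxidases Loxl1 and Loxl3 had positive changes. At an unadjusted p under 0.05 there were 3 (27.3%, against 22.6% of all genes). Of these, Lox and Loxl2 were lower and Pcolce was higher. Loxl2 had 84.0 ± 12.9 and 54.7 ± 18.5 CPM in degarelix only and degarelix plus FSH rats (log2 change -0.62 ± 0.18, edgeR adjusted p = 0.0889). Lox had 60.9 ± 20.2 and 37.4 ± 8.81 CPM (-0.70 ± 0.23, edgeR adjusted p = 0.105). Loxl4 had 1.53 ± 1.02 and 0.969 ± 0.270 CPM (-0.65 ± 0.43, edgeR adjusted p = 0.391). All 3 overlapped between groups, and none passed the threshold. Against these, Loxl3 (0.19 ± 0.10), Loxl1 (0.07 ± 0.12) and Pcolce (0.26 ± 0.08, edgeR adjusted p = 0.105) had positive changes. Fibril-binding proteins had 8 of 11 changes above 0 (72.7%, against 51.6% of all genes), with a median of 0.15. None had an unadjusted p under 0.05. The smallest p there were those of the proteoglycan Bgn (0.21 ± 0.10) and of fibronectin, Fn1 (0.49 ± 0.24).

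Of 16 basement membrane partners of type IV collagen, 11 had changes above 0 (68.8%, against 51.6% of all genes), with a median of 0.15. At an unadjusted p under 0.05 there were 3 (18.8%, against 22.6% of all genes), and 0 passed edgeR's adjusted threshold. The laminin chain Lama5 had 90.6 ± 9.25 and 122 ± 18.9 CPM (log2 change 0.43 ± 0.10, edgeR adjusted p = 0.0509), just short of the threshold, which it passed with DESeq2 (adjusted p = 0.0045), without FSH replicate 4 (edgeR adjusted p = 0.0314) and with a filter of 1 CPM in 5 libraries (edgeR adjusted p = 0.0489). The proteoglycan agrin, Agrn, had 0.23 ± 0.09 (edgeR adjusted p = 0.157). Among 9 receptor and uptake genes, the type VI collagen receptor Antxr2 had -0.48 ± 0.14 (edgeR adjusted p = 0.0835), and the uptake receptor Mrc2 had 0.15 ± 0.12. TGF-beta signalling is known to raise collagen transcription. Among 13 genes of it, 3 had an unadjusted p under 0.05 (23.1%, near the 22.6% of all genes). All 3 changes were positive, where 11.8% of all genes were higher at that p. Of the 13, 7 lay above 0 (53.8%, against 51.6% of all genes) and 6 below (median 0.04). Ltbp1, which stores latent TGF-beta in the matrix, had 47.2 ± 10.3 and 68.5 ± 8.78 CPM (0.54 ± 0.15, edgeR adjusted p = 0.0715), and the target Ctgf had 0.36 ± 0.14 (edgeR adjusted p = 0.152).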

How the data were processed

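RNA from 11 rats, 1 library each, was sequenced as stranded paired-end mRNA libraries, per the labels' protocols. The authors deposited raw counts, 1 whole number per gene and rat, as the values themselves show. STAR, edgeR, DESeq2 and the build rn6 are named, without roles or versions, per the submitters' processing notes. How reads were counted (program, annotation, strand setting) is not given in the sources used here, so overlapping, antisense and near-identical genes may share or lose counts. Groups and replicates came from the labels. Of 25275 rows, 1 (Pcmt1) was left out because 1 of its entries is not a number.

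With edgeR 4.0.16 in R 4.3.3, counts were filtered with filterByExpr (12846 genes, of which 31 collagens), scaled by TMM and tested two-sided by group with the robust quasi-likelihood F test (9 residual degrees of freedom). P-values were adjusted by Benjamini-Hochberg over all genes, at a threshold of 0.05. SE of log2 changes come from that test. Correlations used log2 CPM (prior count 2) and two-sided permutation tests with 100000 resamples. DESeq2 1.42.0, limma-voom 3.58.1, other scalings, filters, the replicate block and libraries left out in turn were alternatives. Libraries were compared in pairs (55) by chi-square over genes. The smallest value, 21.3 per degree of freedom, is far above sampling noise, and all libraries were kept as separate rats. The edgeR step was tested on simulated data. The members, lists and pairs were chosen with earlier results of these data known. Named collagens were those at an unadjusted p under 0.05 or with groups that do not overlap, the 6 of highest mean CPM in each of the fibrillar, basement membrane and type VI classes, the 8 of highest among the others and those at 0, and of each related list the 2 genes of smallest p. Some genes of the marker lists are not reported here. Other collagens are given to account for every member, and Pcolce and the remaining lysyl oxidases to show both directions. Promoter sequences are from RefSeq.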

Additional observations from a re-analysis of the deposited data

Results flagged for a closer look

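Within each group of 5 or 6 rats, single libraries that lay far from the rest of their group were sought among 89 sets of values. The rule marks about 1 in 20 sets by chance only where values are normally distributed, which does not hold for rows with few counts. A row counted in only 1 rat of a group, such as Col2a1 or Col26a1, is always marked. There were 14 marks, and 9 of them were in degarelix plus FSH replicate 3. In that rat Col9a3 (16.3 CPM), Col28a1 (13.0 CPM), Col2a1 (4.83 CPM), Col24a1 (4.08 CPM), Col9a2 (3.49 CPM), Col23a1 (2.15 CPM), Col11a1 (2.01 CPM) and Col26a1 (0.594 CPM) lay above the other 4 FSH rats, and Col6a3 (252.5 CPM) lay below them. In degarelix plus FSH replicate 4, Col4a2 (2298 CPM) and the basement membrane sum (6140 CPM) lay above the other FSH rats. Among degarelix only rats, Col24a1 (0.485 CPM) and Col19a1 (0.242 CPM) were apart in replicate 3 and Col12a1 (30.9 CPM) in replicate 4, the first pair on few counts. Genes in 1 library are not independent of one another, so the number of marks in FSH replicate 3 counts 1 rat.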

How the results depend on the processing

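The number of genes called was 292. It was 1135 with DESeq2 and 14 with the replicate block, and between 30 and 551 with 1 library left out. It was 291 with DESeq2's size factors, 314 with upper-quartile factors, 200 without a filter, 333 with at least 1 CPM in 5 libraries, 324 with limma-voom and 298 without robust estimation. Collagen genes called numbered 0 in each direction, and 1 higher (Col28a1, log2 change 1.28) and 1 lower (Col15a1, -0.69) with DESeq2. Every other alternative run, the replicate block and each library left out included, gave 0 in each direction. With 1 library left out, r ranged from 0.496 to 0.752 for Col1a1 and Col3a1, 0.595 to 0.740 for Col5a1 and Col5a2, 0.676 to 0.817 for Col4a1 and Col4a2, 0.613 to 0.779 for Col6a1 and Col6a2, 0.757 to 0.897 for Col6a1 and Col6a3 and 0.583 to 0.775 for Col4a4 and Col4a5, with adjusted p on either side of 0.05; the cause was not tested. Of 30 named collagens, 13 changed the sign of their log2 change under some alternative, none of them called, and 17 kept it.

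The replicate numbers gave no sign of pairing the rats. Deviations of same-numbered libraries from their group means had r of 0.118, -0.110, -0.109, 0.130 and 0.124. No FSH library correlated best with the degarelix only library of its own number, and the reverse was not examined. The block used 10 libraries, without degarelix only replicate 6. Depth limits the rows with few counts, where 3 counts correspond to 0.127 to 0.223 CPM. Without gene lengths, levels of different collagens were not ranked.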
